A study of Mus musculus with 20 samples.

Results

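The G protein gamma subunits were followed through the development of the mouse habenula, with Gng8 set against the rest of the family. The members were taken by gene symbol: Gng2, Gng3, Gng4, Gng5, Gng7, Gng8, Gng10, Gng11, Gng12 and Gng13. All 10 have a row among the 37994 genes of the developmental tables and among the 36104 genes of the E18 tables. A G protein that couples a membrane receptor to the cell interior is built of an alpha, a beta and a gamma subunit. The gamma subunit is a short protein that stays bound to its beta partner and holds the pair at the membrane through a lipid attached to its last residues. Released beta-gamma pairs open GIRK potassium channels, inhibit calcium channels and act on adenylyl cyclases. The habenula is a small epithalamic structure that links the forebrain to midbrain and hindbrain monoamine and interpeduncular nuclei, and much of its signalling runs through such receptors.

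Single cells were sorted into 384-well plates and read with CEL-seq2, a method that tags each captured polyadenylated RNA at its 3' end with a cell barcode and a molecular identifier (UMI). In the developmental series, 15 plates held habenula of the Brn3a-tauLacZ line, a mouse with a reporter at the Pou4f1 (Brn3a) locus. They comprised 2 plates each at embryonic day 11, 13, 15 and 18 (E11, E13, E15, E18), at postnatal day 4 and 7 (P4, P7) and in the adult, and 1 plate at E12. In a second set, 5 plates held E18 habenula of C57BL/6 mice, 2 from the left side, 2 from the right and 1 from both sides together. The labels name no treatment, reporter genotype, sex, adult age or sort gate, and do not say whether the plates of a stage came from separate animals or from pooled ones. A p-value below therefore measures the spread between plates.

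The last 30 coding bases of the first listed transcript of each gene (GENCODE M21, GRCm38) are shown because this end sets which lipid a gamma subunit can receive; capitals mark the final 12 bases, which encode the 4-residue box that begins with the lipid-bearing cysteine.
Gng2: cgggagaagaagttcttcTGCGCCATCCTT
Gng3: cgggagaagaagttcttcTGTGCGCTCCTC
Gng4: cgggagaagaagttcttcTGCACCATCCTC
Gng5: ttcagaccccagaaagtcTGCTCCTTTTTG
Gng7: ttcaaagacaaaaagcctTGCATAATTCTC
Gng8: cgcgacaagcgactctttTGCACCCTGCTC
Gng10: ttccgggagcccaggtccTGTGCTCTACTT
Gng11: ttcaaagaaaagggcagcTGTGTCATTTCA
Gng12: ttcaaggataagaagaccTGCATCATCTTA
Gng13: tgggtagagaaggccaagTGCACCATCCTA
The box opens with a cysteine codon in all 10 genes. It closes with a leucine codon in 9 members, the end that receives a geranylgeranyl group, and with a serine codon in Gng11, the end that receives a farnesyl group. Over the whole coding sequence, Gng8 (210 coding bases) was closest to Gng2, with 69.95% identical bases, followed by Gng4 with 65.3% and Gng3 with 63.1%. Gng13 was the most distant from Gng8, with 50.5%.

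Gng8 lies on chromosome 7 (chr7:16891786-16895436, plus strand, GRCm38) and overlaps no other annotated gene. The 250 bases before its start (RefSeq, GRCm38.p6, chr7:16891536-16891785, plus strand) are shown because the comparisons turn on Gng8, with a GC box (GGGCGG on either strand) in capitals.
Gng8 promoter: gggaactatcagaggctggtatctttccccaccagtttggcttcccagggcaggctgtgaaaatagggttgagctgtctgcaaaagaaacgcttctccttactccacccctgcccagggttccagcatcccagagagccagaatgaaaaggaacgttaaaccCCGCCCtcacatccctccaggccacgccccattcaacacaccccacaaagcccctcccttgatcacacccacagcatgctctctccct
Within the window that also takes in the first 50 bases of the transcript, the GC box occurred once, and 35.7% of 32851 mouse promoter windows of that length hold 1 or more. An E-box (CANNTG) was absent there and occurred in 72.3% of windows. A TATA box (TATAAA, either strand) was also absent and occurred in 13.6%.

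Wells with at least 1000 counts and 500 genes and at most 20% mitochondrial counts were kept: 3729 of 5756 in the series, 56 to 345 a plate, and 1082 of 1920 in the C57BL/6 set, 54 to 333 a plate. The summed counts of kept wells ran from 758697 to 7760370 a plate. Adult plate 1 kept 56 wells, with a median of 11.9% mitochondrial counts. Plates also differed in their cells: at least 1 Pou4f1 count was found in 28.1% of kept wells on E18 plate 1 and in 51.1% on E13 plate 2, against 71.2% to 92.2% on the other embryonic and neonatal series plates. On adult plates 1 and 2 the share was 37.5% (21 wells) and 52.6% (180 wells). The neuron marker list (10 genes) summed to 3323 counts per 1000000 counts (CPM) on E18 plate 1 and to 5644 to 12442 CPM on the other series plates. Which 5 plates shared a sequencing run is not given, so run and stage cannot be told apart. Levels below are CPM over all kept wells of a plate unless Pou4f1-positive wells are named. One UMI stands for 1 captured molecule whatever the length of its transcript, so members are compared without division by length. In sums over wells, fewer cells of a type and less RNA per cell cannot be told apart.

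Gng8 rose across development. Its level was 68.0 and 84.6 CPM on the 2 E11 plates, 132 on the E12 plate, 341 and 159 at E13, 376 and 391 at E15, and 86.2 and 489.6 at E18. After birth the P4 plates gave 336 and 305.5 CPM, the P7 plates 418 and 444.5, and the adult plates 644 and 506.5. Both adult plates lay above every other series plate, and both E11 plates below every other one. E18 plate 1 and E13 plate 2, the plates with the fewest Pou4f1-positive wells before the adult, lay far below their partners. The medial habenula list (10 genes) summed to 619 and 617 CPM on the E11 plates, 806 and 3258 on those of E15, and 169 and 3293 on those of E18. The P4 plates held 6065 and 7030 CPM of this list, and the P7 and adult plates 4367 to 6674. It was low on the E11 plates and on E18 plate 1, as Gng8 was, while the E15 plates differed in the list and hardly in Gng8; the part of those cells in the rise was not tested. Within Pou4f1-positive wells the E18 plates were closer, at 203 and 499.5 CPM.

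**Figure D1:**
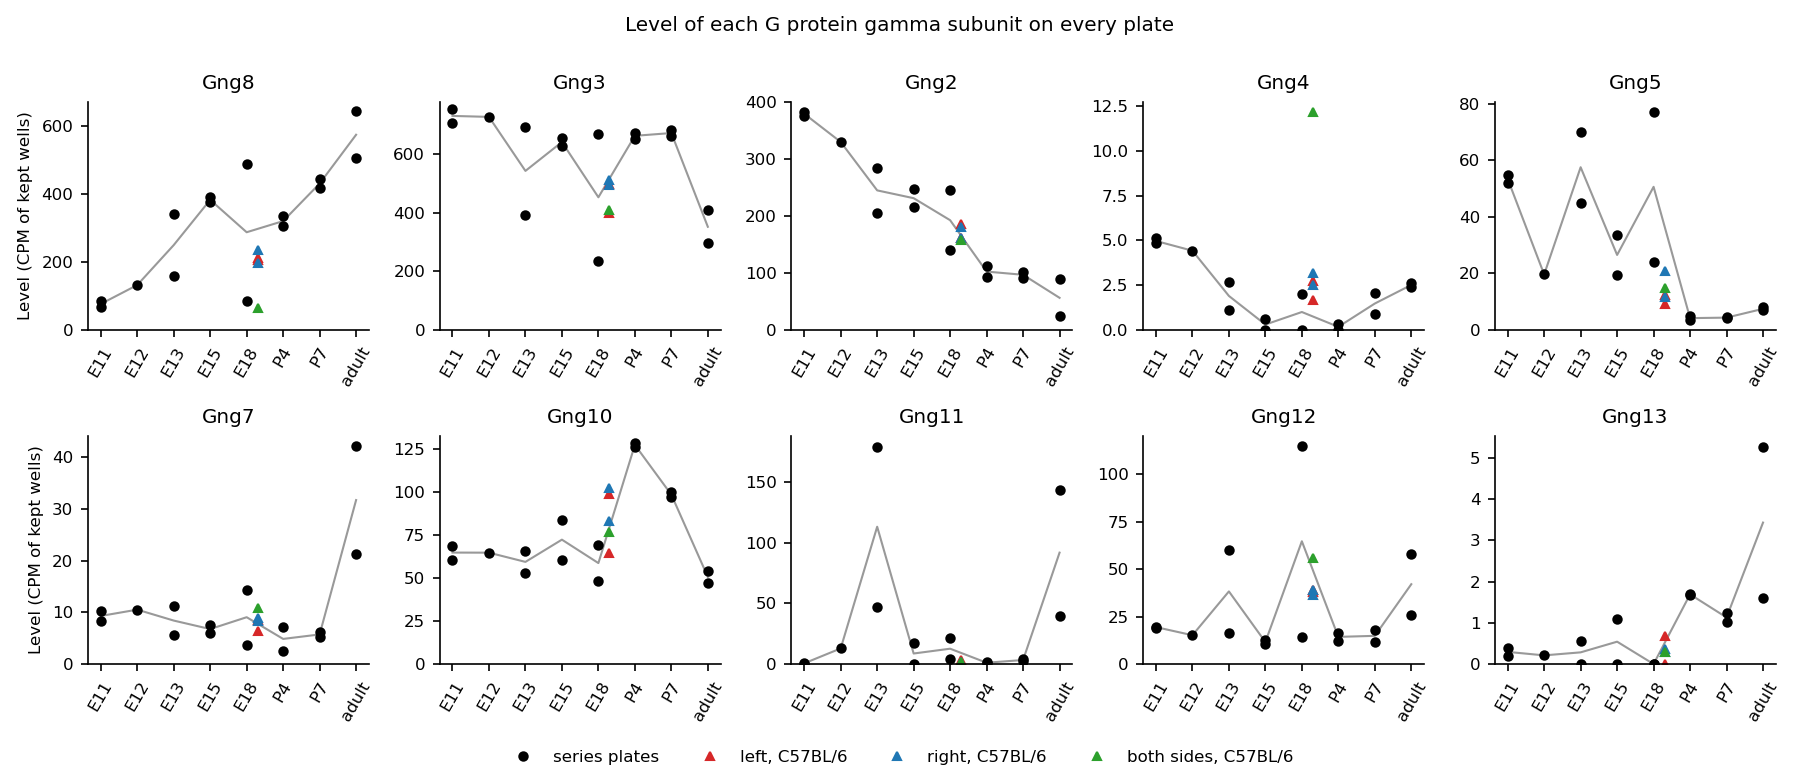
Level of each gamma subunit (y axis, CPM of kept wells, from 0; scales differ between panels) by stage (x axis). Black points are series plates, the grey line joins stage means, and coloured triangles are the C57BL/6 plates at E18. Gng8 runs from 68.0 CPM on an E11 plate to 644 on an adult plate, while Gng2 runs from 383 down to 24.1.

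Across the 15 series plates, 3 of the 9 members tested passed in the stage trend over all kept wells (edgeR quasi-likelihood test, Benjamini-Hochberg adjustment over all genes), where 38.3% of 15676 genes were called. Gng8 rose by 0.34 ± 0.08 (SE) on the log2 scale per stage step, with adjusted p = 0.00412 by edgeR. Gng2 fell by 0.38 ± 0.06 and Gng5 by 0.51 ± 0.12, with adjusted p of 0.000114 and 0.00477. The other 6 did not pass: Gng3 at -0.07, Gng4 at -0.24, Gng7 at 0.14, Gng10 at 0.07, Gng11 at 0.12 and Gng12 at 0.07 per step. Gng11 ran from -0.19 without adult plate 1 to 0.40 without E13 plate 2, and without adult plate 1 Gng7 and Gng12 stood at 0.03 and 0.0019 per step, none of them past the threshold. Gng13 was too rarely counted to be tested in any comparison.

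The same 3 genes passed among 8 members tested in Pou4f1-positive wells, where 42.4% of 14632 genes were called; Gng4 fell below the count filter there. Gng8 rose by 0.34 ± 0.06 per step (adjusted p = 0.000595, edgeR), Gng2 fell by 0.36 ± 0.05 and Gng5 by 0.65 ± 0.10. The other 5 lay at -0.06 for Gng3, 0.09 for Gng7, 0.06 for Gng10, -0.02 for Gng11 and -0.12 for Gng12. Gng12 passed as falling when wells had to hold 2 Pou4f1 counts, at -0.30 per step (adjusted p = 0.00571, edgeR). Without adult plate 1 Gng7 turned to -0.06 and Gng11 to -0.68, and Gng11 was 0.29 without E13 plate 2, without passing. Neither share of members lies above that of all genes. The calls of Gng2, Gng5 and Gng8 held in all 22 alternatives over all kept wells and in all 23 over Pou4f1-positive wells, each left-out plate included.

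**Figure D2:**
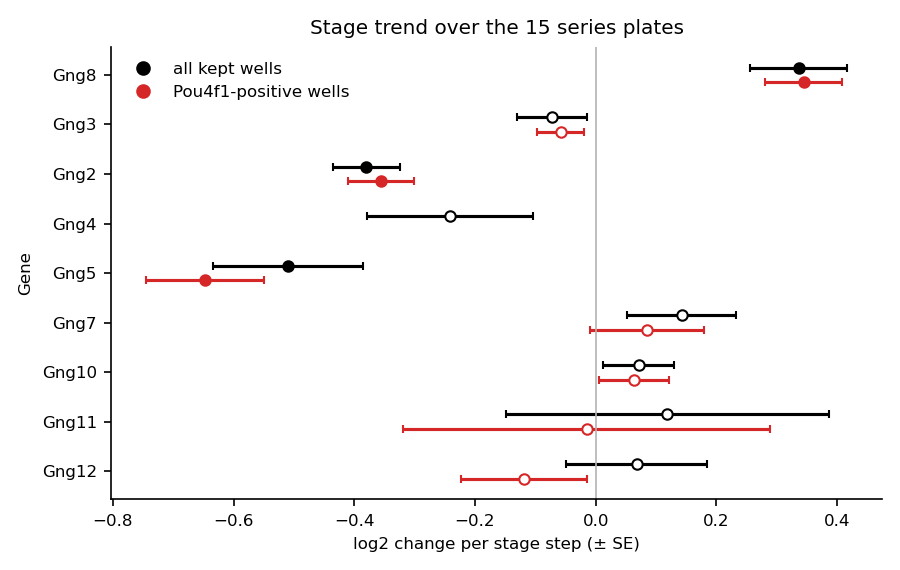
Log2 change per stage step (x axis, ± SE) for the members tested (y axis), in all kept wells (black) and Pou4f1-positive wells (red). Filled points passed adjusted p 0.05 with edgeR: Gng8 lies at 0.34 in both, Gng2 at -0.38 and -0.36, Gng5 at -0.51 and -0.65.

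From E11 to P4 over all kept wells, 5 of the 9 members tested passed, against 24.3% of 17453 genes. Gng8 was 76.3 ± 11.7 CPM at E11 and 321 ± 21.6 at P4 (SD, n = 2 plates each), a rise of 2.14 ± 0.64 (SE) on the log2 scale with adjusted p = 0.0327 by edgeR. Gng10 rose by 1.04 ± 0.25, Gng2 fell by 1.83 ± 0.48 and Gng5 by 3.62 ± 0.45. Gng4 passed as lower, on very few counts. The other 4 differed by -0.07 (Gng3), -0.88 (Gng7), 0.95 (Gng11) and -0.37 (Gng12). With single plates left out Gng11 ran from -0.16 to 1.57 and Gng7 from -1.70 to -0.33. Gng5 passed in every alternative. Gng8, Gng2 and Gng10 each lost the call when either E11 plate or either P4 plate was left out, with Gng8 reaching adjusted p = 0.184 (edgeR), and Gng4 lost it without either E11 plate or without P4 plate 2. In Pou4f1-positive wells the same 5 members passed, against 30.6% of 16353 genes, and Gng8 (2.10 ± 0.39) and Gng5 kept their calls in all 12 alternatives. Gng4 and Gng10 lost theirs without E11 plate 2 or P4 plate 2, and Gng2 without E11 plate 2 or either P4 plate. There Gng2 fell by 1.87, Gng5 by 3.95 and Gng10 rose by 1.04, while Gng3 (-0.10), Gng7 (-1.004), Gng11 (-0.79) and Gng12 (-1.02) did not pass. Gng12 passed at 2 Pou4f1 counts, at -1.53 (adjusted p = 0.0179, edgeR), and Gng11 stood at -2.24 there.

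From E18 to P4, 2 of 9 members passed, against 19.6% of genes: Gng5 fell by 3.38 ± 0.46 and Gng10 rose by 1.34 ± 0.26 (adjusted p = 0.00166 and 0.00702, edgeR). The same 2 passed in Pou4f1-positive wells, against 20.4% of genes. Gng10 lost its call without P4 plate 2 over all wells (adjusted p = 0.0575, edgeR) and without E18 plate 1 in Pou4f1-positive wells (0.0558). The Gng8 difference was 0.32 ± 0.62 over all wells (adjusted p = 0.739, edgeR). It turned to -0.49 without E18 plate 1, and to 2.27 with adjusted p = 0.00284 (edgeR) without E18 plate 2, so the sign rested on which E18 plate was kept. In Pou4f1-positive wells the difference was 0.02 ± 0.37, and it passed without E18 plate 2 (adjusted p = 0.0448, edgeR). Over all wells the members that did not pass were Gng2 at -0.71, Gng3 at 0.73, Gng7 at -0.73, Gng11 at -3.31, Gng12 at -1.92 and Gng4, which is given no value on 2 and 0 counts at P4. In Pou4f1-positive wells Gng5 fell by 2.87 and Gng10 rose by 1.15, and the others lay at -0.82 for Gng2, 0.35 for Gng3, -0.30 for Gng7, -3.10 for Gng11 and -1.67 for Gng12. Under the alternatives Gng5 stayed between -3.84 and -2.42 over all wells and between -3.08 and -2.58 in Pou4f1-positive wells. The values of the members that did not pass also rested on the E18 plate kept. Over all wells Gng3 was 0.11 without E18 plate 1 and 1.86 without plate 2, where it passed (adjusted p = 0.00362, edgeR). Gng12 was 0.13 without plate 1 and -2.62 without plate 2 (adjusted p = 0.00423, edgeR), and it also passed without plate 2 in Pou4f1-positive wells, at -2.41. Gng7 turned to 0.47 without plate 1, Gng2 was -1.14 without plate 1 and -0.08 without plate 2, and Gng11 was -1.60 and -3.85; none of these 3 passed in either case.

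From P4 to P7 none of the 9 members passed by edgeR or DESeq2 in either population. A single gene was called in each, 0.00573% of 17453 and 0.00612% of 16353, while 475 and 551 genes had an unadjusted p under 0.05. Gng8 differed by 0.41 ± 0.61 over all wells and by 0.44 ± 0.37 in Pou4f1-positive wells. Over all wells the differences of Gng2, Gng3, Gng5, Gng7 and Gng12 lay between -0.10 (Gng2) and 0.24 (Gng7), with Gng10 at -0.39 and Gng11 at 1.56. In Pou4f1-positive wells they were -0.06 for Gng2, 0.04 for Gng3, -0.19 for Gng5, 0.31 for Gng7, -0.38 for Gng10, 1.02 for Gng11 and -0.46 for Gng12. Gng4, with 2 and 0 counts at P4, is again given no value. With single plates left out, Gng3, Gng5, Gng7 and Gng12 changed sign over all wells, without passing: Gng7 ran from -0.30 to 1.07.

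From P7 to the adult none passed over all kept wells with edgeR, where 3.58% of genes were called and 3607 had an unadjusted p under 0.05; DESeq2 called 3 members. In Pou4f1-positive wells Gng10 fell by 1.21 ± 0.25 (adjusted p = 0.0205, edgeR), against 3.68% of genes called. That call was lost without either P7 plate, without adult plate 1 and without wells of very high counts. Gng8 differed by 0.30 ± 0.62 over all wells and by 0.41 ± 0.37 in Pou4f1-positive wells, neither past the threshold. Over all wells Gng2, Gng3 and Gng10 lay lower in the adult, at -1.01, -1.05 and -1.06, and Gng4 (0.59), Gng5 (0.62), Gng7 (2.29), Gng11 (4.56) and Gng12 (1.28) higher. The smallest adjusted p among them, by edgeR, was 0.0505 for Gng10. In Pou4f1-positive wells the values were -0.86 for Gng2, -0.90 for Gng3, -0.03 for Gng4, 0.04 for Gng5, 1.87 for Gng7, 5.45 for Gng11 and 0.86 for Gng12, and Gng11 had adjusted p = 0.0526 by edgeR. The adult plate kept decided several of these, and adult plate 1 entered the Pou4f1-positive sums with only 21 wells. Without adult plate 2, Gng7 and Gng11 passed in both populations, at 2.82 and 5.33 over all wells and at 2.69 and 6.70 in Pou4f1-positive wells; without adult plate 1 neither did, at 1.74 and 3.40 and at 1.06 and 2.61. Gng2 passed in Pou4f1-positive wells without adult plate 1, at -2.04 (adjusted p = 0.0229, edgeR), and was 0.08 without adult plate 2; over all wells it was -2.15 and -0.18, neither past the threshold. Gng12 in Pou4f1-positive wells was -0.09 without adult plate 1 and 1.99 without plate 2.

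Gng3, a neuronal gamma subunit found through much of the brain, was the most abundant member on 13 of the 15 series plates and on all 5 C57BL/6 plates. It lay at 708 and 754 CPM at E11, 727 at E12, 694 and 391 at E13, 656 and 626 at E15, and 237 and 669 at E18. Later the P4 plates gave 673 and 652 CPM, the P7 plates 682 and 662, and the adult plates 409 and 295. Apart from E13 plate 2, E18 plate 1 and the adult plates, the values stayed between 626 and 754. Gng3 shares exon sequence with Bscl2 on the opposite strand. The counting is not stated to use strand, so whether reads of the 2 genes were kept apart is not known.

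Gng2, a broadly expressed subunit much used in studies of beta-gamma signalling, stood beside Gng3 early and then declined. It measured 383 and 376 CPM at E11, 330.3 at E12, 285 and 205 at E13, 247 and 216 at E15, 139.7 and 246 at E18. The P4 plates gave 112 and 93.3 CPM, the P7 plates 91.5 and 102, and the adult plates 88.5 and 24.1. Every postnatal plate lay below every embryonic plate. An annotated antisense gene overlaps an exon of Gng2 too.

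Gng8, Gng3 and Gng2 together made up 62.5% to 92.4% of the family's counts on the series plates, lowest on E18 plate 1 and E13 plate 2. Gng8 contributed 5.16% and 6.22% at E11, 26.4% and 25.3% on the P4 plates, 31.6% and 33.3% on the P7 plates, and 44.5% and 51.8% on the adult plates. It exceeded Gng3 on 2 of 15 plates, both adult, and Gng2 on 10 of 15.

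**Figure D3:**
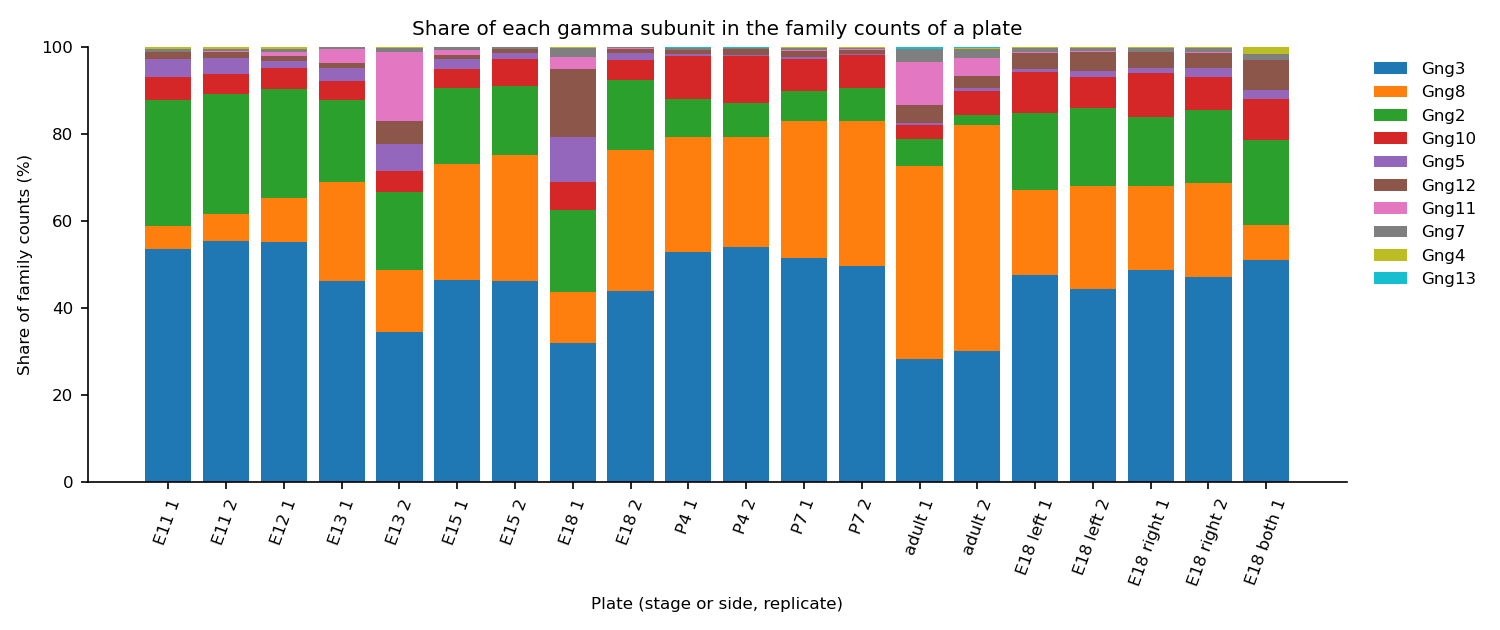
Share of the family's counts (y axis, %) taken by each gamma subunit on each of the 20 plates (x axis). The orange Gng8 segment widens from 5.16% on E11 plate 1 to 51.8% on adult plate 2.

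The ratio of Gng8 to Gng3 counts, taken within each plate, was lowest at E11 and highest in the adult. It was 0.0961 and 0.112 at E11, 0.182 at E12, 0.491 and 0.407 at E13, 0.572 and 0.624 at E15, and 0.364 and 0.732 at E18. The P4 plates gave 0.499 and 0.468, the P7 plates 0.613 and 0.672, and the adult plates 1.58 and 1.72. The ratios are given as a description. Permutation tests of them against stage were run but are not relied on, since both levels were already known.

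**Figure D4:**
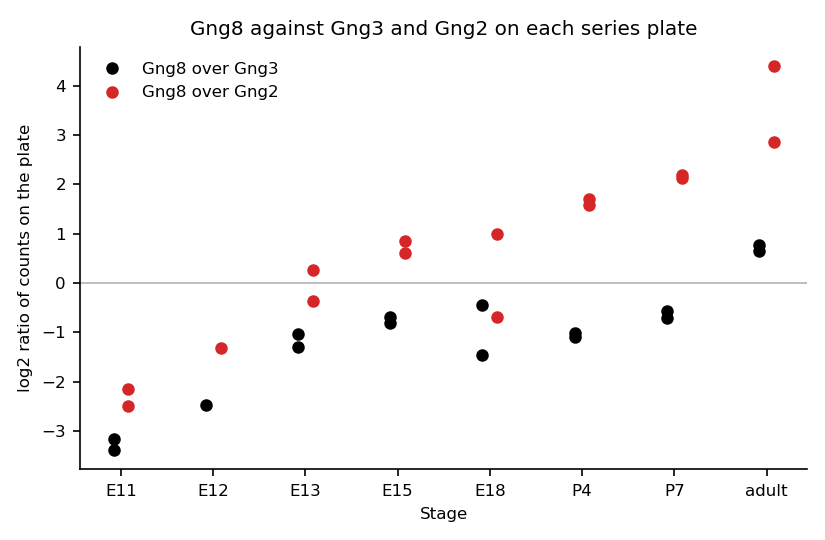
Log2 ratio of Gng8 counts to Gng3 counts (black) and to Gng2 counts (red) on each of the 15 series plates (y axis) by stage (x axis); the line marks equal counts. Gng8 over Gng3 lies above 0 on the 2 adult plates, at 0.66 and 0.78.

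Gng5, a subunit of dividing and undifferentiated cells in many tissues, was an embryonic gene here. It measured 54.9 and 51.9 CPM at E11, 19.6 at E12, 44.9 and 70.1 at E13, 33.7 and 19.3 at E15, and 77.02 and 24.1 at E18, then 3.37 to 7.91 on the 6 postnatal plates. Embryonic and postnatal plates did not overlap. On the C57BL/6 plates at E18 it was 9.29 to 20.8 CPM. The highest values came from E18 plate 1 and E13 plate 2, the plates with the highest progenitor list (4705 and 2016 CPM for 10 genes, against 270.2 to 1182 on the other series plates). The part of those cells in the trend over all wells was not tested. The fall per stage step was 0.51 over all wells and 0.65 in Pou4f1-positive wells, a difference that was not tested.

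Gng4 was rare throughout. It was counted at 4.83 and 5.11 CPM at E11 and 4.42 at E12, at no more than 2.66 on the later series plates, and not at all on E15 plate 1, E18 plate 2 and P4 plate 2. The limits that no count sets (3 counts) are 1.63, 2.26 and 0.460 CPM on those plates. All 15 plates together gave 122 Gng4 counts. Its call from E11 to P4 rests on 25 counts on each E11 plate against 2 and 0 at P4.

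Gng10 kept a level of 47.5 to 84.1 CPM on the embryonic and adult series plates and peaked at P4, with 126 and 129 CPM, followed by 97.2 and 100.1 at P7. The 4 neonatal plates lay above all others of the series. The C57BL/6 plates at E18 gave 64.9 to 102 CPM, above E18 plate 2 on 4 of 5 plates. A second annotated gene, Gm20503, shares exon sequence with Gng10 on the same strand, so its reads may be split between the 2.

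Gng11, the farnesylated member, and Gng12 differed widely between plates. Gng11 lay at 47.2 and 179 CPM at E13, 144 and 39.98 in the adult, 21.6 and 3.77 at E18, and between 0 and 17.4 on the remaining 9 plates. Gng12 reached 115 CPM on E18 plate 1, 60.02 on E13 plate 2 and 58.0 on adult plate 1, and lay between 10.7 and 26.0 on the other 12. An exon of 4930597O21Rik overlaps Gng12 on the opposite strand. The vascular and mural list (10 genes) summed to 1356 CPM on E13 plate 2, and the astrocyte list (10 genes) to 1627 on E18 plate 1 and 1979 on adult plate 1. That list also stood at 1298 on adult plate 2, and the vascular list at 1397 on E18 plate 2. The ependymal or choroid plexus list (8 genes) summed to 3893 CPM on E13 plate 2. P7 plate 1 had 966 CPM of the vascular list and 4.38 of Gng11, and adult plate 1 had 228 of the list and 144 of Gng11. That list pools endothelial, mural and collagen genes. The part of the listed cells in the Gng11 and Gng12 levels was not tested. Gng7, known from striatal neurons and glia, was 42.2 and 21.3 CPM in the adult and 2.61 to 14.4 on the earlier plates. The oligodendrocyte list summed to 11063 and 3142 CPM on the adult plates and to no more than 389.6 on the earlier plates. The part of those cells in the Gng7 level was not tested. Gng13, the subunit of taste and olfactory cells, gave 55.0 counts over the series, with 5.27 and 1.59 CPM in the adult, and shares exon sequence with Chtf18 on the opposite strand.

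The share of wells with at least 1 Gng8 count, each well thinned to 2000 UMIs, was 14.1% and 10.3% at E11, 23.9% at E12, 40.0% and 21.7% at E13, 48.0% and 54.5% at E15, and 14.2% and 66.4% at E18. After birth the P4 plates gave 44.2% and 42.5%, the P7 plates 52.2% and 54.3%, and the adult plates 72.5% (40 wells) and 41.3%. Adult plate 2, the second highest in level, thus lay below both P4 plates in this share. The exact 95% intervals (Clopper-Pearson, counting error only) ran from 7.30% to 14.1% on E11 plate 2 and from 48.2% to 60.2% on P7 plate 2. They leave out the spread between plates of a stage, which at E18 gave 14.2% and 66.4%. Unthinned, the E11 shares were 49.2% and 40.0% and the P7 shares 92.0% and 92.9%. The share for Gng3 was 71.8% and 74.0% at E11 and 67.9% and 69.9% at P7 after thinning, with 37.5% and 32.7% in the adult. Gng2 went from 46.6% and 51.0% at E11 to 14.2% and 16.0% at P7 and to 7.50% and 3.36% in the adult.

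Pou4f1 marks most habenular neurons. Wells with at least 1 Pou4f1 count were set against wells with none on the same plate, with plate as block (14 plates). Pou4f1 was read after each well was thinned to 2000 UMIs, so negative wells include wells that held Pou4f1 counts before thinning. On P7 plate 1, 296 of 326 kept wells held a count unthinned, and after thinning 172 were positive and 152 negative. Adult plate 1 had 7 positive wells and was not tested. Of the 4 members abundant enough to test after thinning, 2 passed, against 8.53% of 4968 genes. Gng3 was higher in positive wells on 14 of 14 plates, with a median of 711 against 574 CPM and a log2 difference of 0.42 ± 0.09 (adjusted p = 0.00333, edgeR). The Gng3 call held in 19 of 20 alternatives and was lost with no plate block. Gng8 was higher on 10 of 14, with a median of 384 against 264 CPM and a difference of 0.40 ± 0.12 (adjusted p = 0.0397, edgeR). The largest ratio for Gng8 was on E18 plate 1, 243 against 67.0 CPM, a plate with 37 positive and 224 negative wells. On P7 plate 2, P4 plate 1, E12 and E11 plate 2 the negative wells were higher. Gng8 lost its call in 11 of 20 alternatives, among them DESeq2, no plate block and 8 of the left-out plates, each of E11 plate 1, E13 plate 1, E15 plate 1, E18 plates 1 and 2, P4 plate 2, P7 plate 1 and adult plate 2. Gng2 (0.28 ± 0.12) and Gng10 (0.24 ± 0.14) did not pass. Of the members not tested, Gng11 gave 11 UMIs in positive and 143 in negative wells, Gng12 gave 49 and 161, and Gng5 gave 89 and 132.

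Left and right habenula of C57BL/6 mice at E18 were compared over 2 plates a side, and no member passed. Gng8 was 206 and 213 CPM on the left plates and 198 and 235 on the right ones, and the ranges overlapped. The difference, left minus right, was -0.02 ± 0.18 (SE) on the log2 scale (edgeR adjusted p = 1.00). None of the 8 members tested passed, and 0% of 15489 genes did; 182 had an unadjusted p under 0.05, and DESeq2 called 1 gene and no member. The erythroid list summed to 19048 and 17219 CPM on the left plates and to 3410 and 265.5 on the right; its part in the differences was not tested. The other differences ran from -0.57 ± 0.39 for Gng5 to 0.04 for Gng2 and Gng12, with Gng4 at -0.43 and Gng3, Gng7 and Gng10 each at -0.14. The plate of both sides gave 65.8 CPM for Gng8, below all 4 side plates, and held 46.2% Pou4f1-positive wells against 73.7% to 81.0% on those plates. Within Pou4f1-positive wells Gng8 was 117 CPM there and 225 to 276 on the side plates.

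Among clusters of wells, built without the members and without the alpha and beta subunit genes, Gng8 differed widely between neurons of the same plates. Cluster levels are descriptions, with no test. In the series (26 clusters), the cluster led by Rxfp2 and Htr5b, which also has Oprm1 and Gpr151 among its top genes, held 594 and 674 CPM of Gng8 at P4 and 717 and 683 at P7. The cluster of Tpbgl, Pth2, Chrnb3 and Slc18a3, medial-habenula-like by 7 of its markers, held 275 and 224 CPM at P4 and 250.3 and 214 at P7. The values of the 4 plates did not overlap between these clusters. A second medial-habenula-like cluster, led by Gm12130 and Neurod6, gave 335, 292, 313 and 344 CPM on the same plates. The Gad1, Pde11a and Cck cluster gave 605 and 631 CPM at P7 and 431 on P4 plate 1. Gng3 was flatter over these 4 clusters, from 553 to 781 CPM, and Gng8 exceeded it in the Htr5b cluster (679.8 against 553 CPM over all wells).

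The largest adult cluster stayed unnamed: Htr2c and the heat shock genes Hspa1b and Hspa1a led it. In it 5 medial habenula and 2 lateral habenula markers passed, and Htr2c is itself on the lateral habenula list. There Gng8 was 800.3 CPM on adult plate 1 (15 wells) and 612 on adult plate 2 (174 wells), against 359 CPM of Gng3 over all its wells. In it 4 oligodendrocyte markers also passed; the part of those genes' cells and of the heat shock genes in the level was not tested.

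Early clusters separated as well. At E11 the Lin28a and Onecut3 cluster held 100.1 and 141 CPM of Gng8, and the cluster led by Tfap2b and Tfap2a 24.6 and 18.2, while Gng3 was 853 and 728 CPM over the 2 clusters. The Tal2 and Lhx1 cluster, intermediate-progenitor-like, held 38.8 and 39.9 CPM at E11, 129 at E12 and 211 on E13 plate 1. In that cluster the E13 plate was the highest and the E11 plates the lowest.

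**Figure D5:**
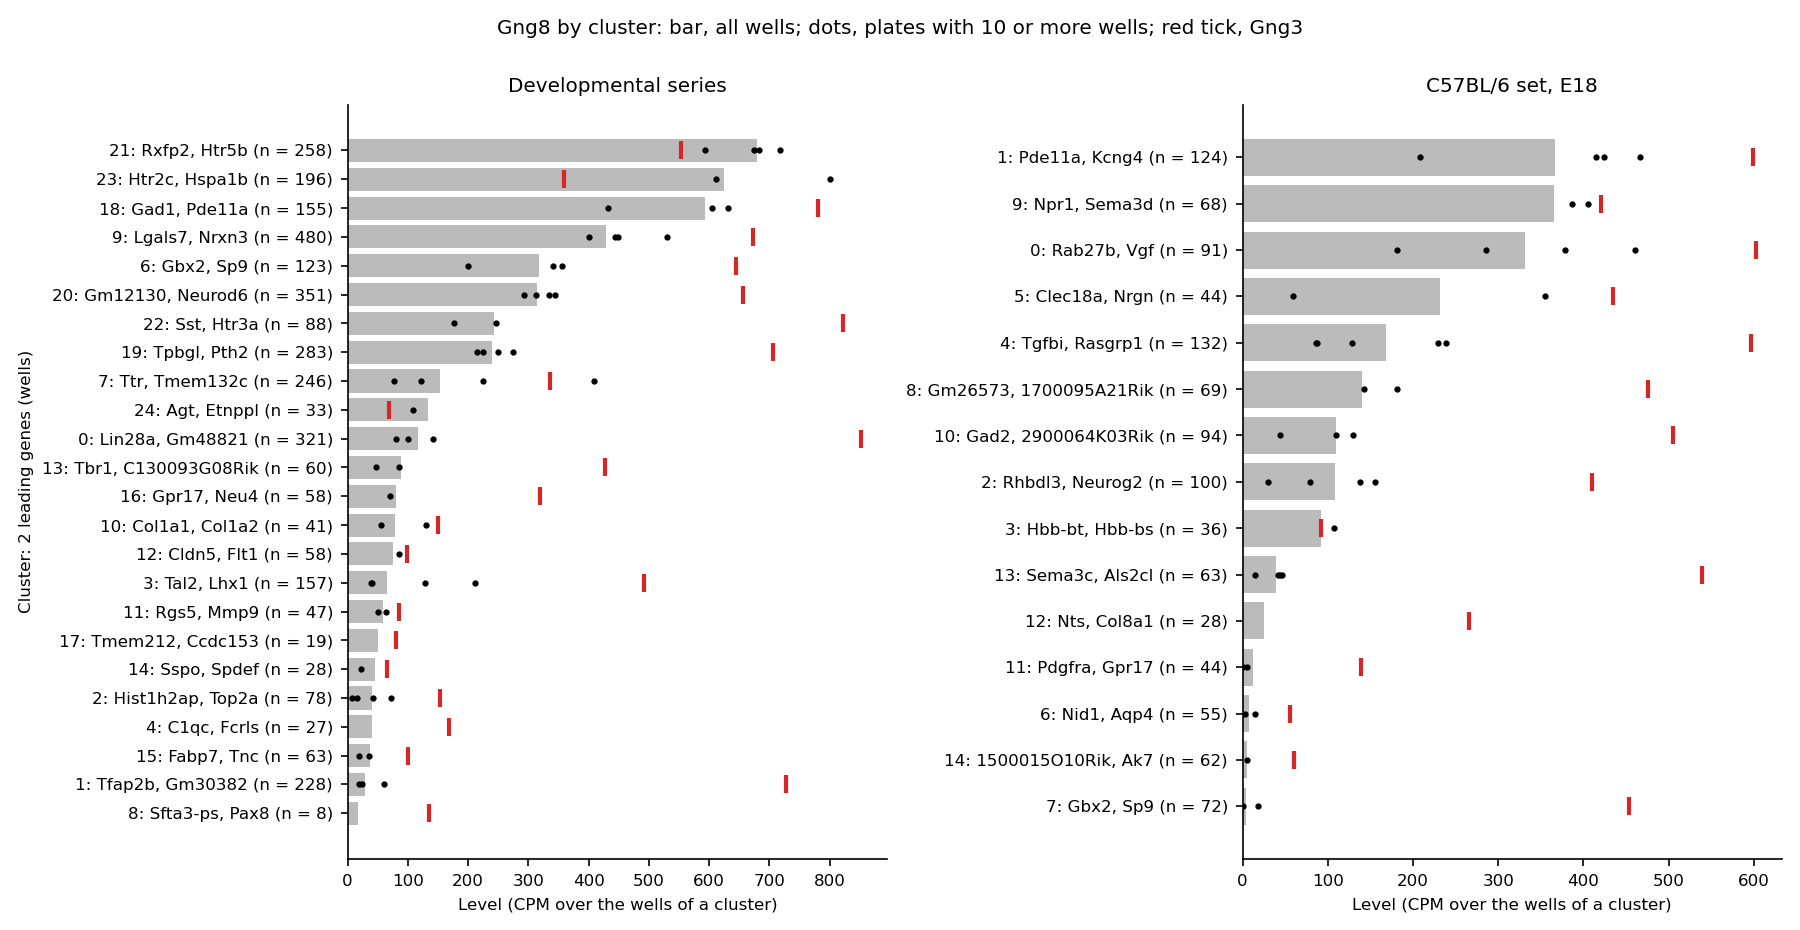
Gng8 level (x axis, CPM over the wells of a cluster) by cluster (y axis, with its 2 leading genes and its wells) in the series (left) and the C57BL/6 set (right). A pair of series clusters is not drawn. Bars are all wells, dots single plates with at least 10 wells, red ticks Gng3. The Htr5b cluster stands at 679.8 CPM in the series, and the Gbx2 cluster of the C57BL/6 set at 4.07 against 453 for Gng3.

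In the C57BL/6 set (15 clusters), the medial-habenula-like cluster led by Pde11a and Kcng4 held 367 CPM of Gng8, found in 124 of 124 wells at a median of 25612 counts. The cluster with Gpr151, Htr5b and Oprm1 held 365 CPM. A neuronal cluster led by Gbx2 and Sp9, thalamic transcription factors, held 4.07 CPM, with Gng8 in 5 of 72 wells at a median of 26042 counts; 49 of the 72 wells came from the plate of both sides. Gng3 stood at 599 and 453 CPM and Gng2 at 212 and 280 CPM in the Pde11a and Gbx2 clusters. In the series, a cluster that Gbx2 and Sp9 also lead, intermediate-progenitor-like, held 318 CPM of Gng8. The 94 lateral-habenula-like wells of the C57BL/6 set held 110.1 CPM. In wells that should lack a neuronal gene, Gng8 counts were found in 7 of 36 erythroid wells (median 4099 counts) and in 4 of 62 wells of the cluster led by 1500015O10Rik and Ak7 (median 12885 counts). In the series Gng8 was 40.0 CPM in the microglia-like cluster and 36.6 in the astrocyte-like cluster of Fabp7 and Aqp4. Other clusters outside the neurons held more: 74.9 CPM in the vascular-like Cldn5 cluster (22 of 58 wells), 78.4 in the Col1a1 cluster (19 of 41 wells), 80.3 in the oligodendrocyte-lineage-like Gpr17 cluster (29 of 58 wells) and 133 in the astrocyte-like cluster with Agt and Etnppl (15 of 33 wells). These 4 levels are near or above the 68.0 and 84.6 CPM of the whole E11 plates.

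Gng11, Gng12 and Gng5 were highest outside the neuron clusters. Gng11 reached 675 CPM in an unnamed cluster led by Rgs5, with Acta2 among its top genes and 392 in the vascular-like cluster led by Cldn5, and 0 to 7.31 CPM in the 6 clusters of neonatal neurons and of adult Htr2c wells. Gng12 reached 277 CPM in the Aqp4 and Fabp7 cluster and 250.03 in the Gpr17 and Pdgfra cluster; in the C57BL/6 set unnamed clusters with Aqp4 and with Gpr17 and Pdgfra among their top genes gave 352 and 342. Gng5 was 112 CPM in an unnamed cluster led by Hist1h2ap and Top2a and 1.56 to 5.24 in those 6 clusters. In that unnamed cluster 10 progenitor and 7 cycling markers passed. Gng4 was highest in the Gpr17 cluster of the series, at 30.3 CPM, and in the Gbx2 cluster of the C57BL/6 set, at 29.99 CPM.

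Reads were also deposited split into spliced and unspliced. Unspliced UMIs made up 2.04% of Gng8 counts over the series (exact 95% interval 1.84% to 2.26%), between 0.821% and 3.67% by plate, and 2.43% of Gng3 counts. The whole library had 23.1%. The 4 members with the longest loci had the highest shares, but not in order of length: Gng12 39.1% (124954 bases), Gng4 27.9% (43838 bases, 122 counts), Gng7 21.5% (66322 bases) and Gng2 12.9% (105069 bases). The other members, with loci of 2236 to 6816 bases, lay between 0.2998% for Gng10 and 7.27% for Gng13, which had 55.0 counts; Gng5 was at 0.595% and Gng11 at 2.32%.

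The partners of the gamma subunits were read from lists of the same pathway; over all genes, 20.0% rose and 18.2% fell in the stage trend. Of 11 alpha subunits tested in the stage trend, 4 fell and none rose, with a median of -0.11 per step (all genes 0.00): Gnai3 fell by 0.30, Gnai2 by 0.21 and Gnaq by 0.18, the first 2 inhibitory alpha subunits and the last the one that couples to phospholipase C. Of 5 beta subunits, Gnb5 rose by 0.33 ± 0.06 and Gnb2 fell by 0.44 ± 0.07 per step. Gnb5 pairs with the R7 class of RGS proteins in place of a gamma subunit, and 4 of 6 genes of that complex rose, among them Rgs6 (0.80 ± 0.15), Rgs7bp (0.60 ± 0.08) and Rgs11 (0.47 ± 0.15), with a list median of 0.35. In Pou4f1-positive wells, where 22.9% of all genes rose and 19.5% fell, 5 of the 11 alpha subunits fell and 2 rose, Gnal by 0.28 and Gnao1 by 0.16, both named after their values were seen. Among the beta subunits 1 rose and 1 fell there, and 5 of the 6 genes of the R7 complex rose. Rgs6 was 11.6 ± 4.11 CPM at E11 and reached 588 ± 6.29 by P4 (SD, n = 2 plates each).

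Of 4 GIRK channel genes, the targets of beta-gamma pairs, 3 rose: Kcnj9 by 0.76 ± 0.10, Kcnj5 by 0.62 ± 0.19 and Kcnj6 by 0.46 ± 0.09, with a list median of 0.54. Kcnj5 was nearly uncounted, with stage means of 0 to 3.13 CPM before the adult and 5.07 ± 7.17 (SD, n = 2 plates) in the adult, where 1 of the 2 plates had none. Kcnj9 was 1.20 ± 0.33 CPM at E11 and 48.5 ± 10.7 in the adult. Of 8 genes listed for folding of the beta-gamma pair or nucleotide exchange on the alpha subunit, 6 fell and none rose. Among them Ric8a, Cct4 and Cct5 each fell by 0.18, and the list median was -0.13. Of 7 genes listed for prenylation and gamma processing, 2 fell, Rce1 by 0.16 and Pcyox1 by 0.14. None rose, although the list median was 0.05. In Pou4f1-positive wells 2 of 3 GIRK genes rose and 5 of 8 folding and exchange genes fell. Of the 7 prenylation and processing genes 2 fell there and 1 rose, Fntb by 0.10.

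The genes whose level followed Gng8 most closely over the 15 plates, among 10816 of mean CPM 10 or more, were Trim66 (Pearson r = 0.945 of log2(CPM + 1)), Tceal6 (0.929), 5730455P16Rik (0.922), Kcng4 (0.906), Nrn1 (0.904), Mcub (0.903), Wfdc1 (0.901), Nek7 (0.892), Sntg1 (0.889) and Adcy8 (0.888). These correlations are descriptions; the plates share stage and cell mixture. Nrn1, which encodes a secreted neurite-growth factor, went from 213 and 239.6 CPM at E11 to 539 and 615 in the adult. Kcng4, a modifier subunit of potassium channels, went from 0.193 and 0.817 to 138 and 221 CPM. Of the other gamma subunits, Gng10 had r = 0.254, Gng11 0.170, Gng3 0.03, Gng7 -0.046, Gng12 -0.31, Gng2 -0.57 and Gng5 -0.67; Gng4 and Gng13 were below mean CPM 10.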

How the data were processed

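Tables of spliced, unspliced and total values per gene and well were deposited. Per the submitters' processing notes, reads were handled with Trim Galore and STAR 2.5.3a on mm10; the counting program, annotation and use of strand are not stated in the sources used. The values are expected counts: the authors deposited UMI numbers corrected for collisions among 4096 possible UMIs, and inverting that formula gave whole UMIs for 100% of values (tolerance 1e-06). The planned test for counts was therefore run on sums rounded to whole numbers. Spike-ins were left out.

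Counts of kept wells were summed per plate, the replicate, and tested with edgeR 4.0.16 (R 4.3.3) by quasi-likelihood F tests, adjusted over all genes; an SE is the log2 difference over the root of F. Stage steps run over ranks 1 to 8. Simulated counts with known changes gave back 100% of 8-fold and 46.5% of 2-fold changes in the stage trend (15903 genes). The shares were 96.8% and 14.7% from E11 to P4 (16487 genes), and 100% and 16.3% between sides at E18 (15501 genes). For Pou4f1-positive against negative wells they were 100% and 100% (5089 genes). The simulation gave all genes the same spread and all plates the same mix of cells. Its shares therefore do not hold for genes that vary more between plates, such as Gng11. Recovery of known changes placed in the real counts was not tested. Clusters came from scanpy 1.11.5 (2000 variable genes, 30 components, Leiden resolution 1); doublets were not called, wells above 3 times a plate's median count being left out as an alternative. A cluster was named from 3 or more of its listed markers (5 for neuron). Alternatives were DESeq2 1.42.0 and its size factors, no count filter, deeper wells, recovered UMIs, each plate left out, a replicate block, and 2 Pou4f1 counts. The members, lists and tests were chosen with earlier results of these data known. The rule names all 10 members in every result they enter. Levels are given for each, some as ranges over plates, and for Gng13 by plate in the adult only. Every comparison gives the members it tested, except that Gng4 has no difference printed from E11 to P4, E18 to P4 and P4 to P7. The shares of wells, clusters and unspliced shares are given for some members. The rule also names up to 3 genes of each list with the largest rise and fall past adjusted p 0.05 in the stage trend. The 10 genes most correlated with Gng8 are named too. The plate of both sides is titled E1 but labelled E18 by stage, and was used as E18. Results for a pair of series clusters are not reported here.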

Additional observations from a re-analysis of the deposited data

Results flagged for a closer look

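The C57BL/6 plate of both sides entered no comparison, and 3 members lay above all 4 side plates on it. The share of all genes that lay above the side plates there was not determined, so the 3 are given without a background. Gng4 was 12.1 CPM there, against 1.69 to 3.17 on the side plates, Gng12 was 55.8 against 36.6 to 39.0, and Gng7 was 10.8 against 6.49 to 8.94. The same plate had 46.2% Pou4f1-positive wells, 2082 CPM of the progenitor list and 49 of the 72 wells of the Gbx2 cluster, where Gng4 was highest at 29.99 CPM. The part of these cells in the 3 levels was not tested.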

How the results depend on the processing

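Of 168 counts of members called under an alternative, 135 stayed within 1.5 times the main count. Counts that moved with no count filter were 4 from E18 to P4 in both populations (main 2; Gng11 and Gng12 added), 6 and 4 from P7 to the adult over all and Pou4f1-positive wells (main 0 and 1; Gng3, Gng7 and Gng11 added in both, with Gng2, Gng10 and Gng12 over all wells), and 4 for Pou4f1-positive against negative wells (main 2; Gng11 and Gng12 added as lower). DESeq2 gave 3, 2 and 1 in those last 3, and without wells of very high counts 2 members passed from P7 to the adult. The Pou4f1 comparison fell to 0 with no plate block and to 1 at 1000 UMIs; it already used whole UMIs, so recovered UMIs were not run for it. The labels do not say that a plate number marks shared animals. Same-numbered plates of different stages had deviations correlated at -0.357 to 0.246, so the numbers were not taken to pair them; left and right plates of the same number gave 0.233, and with only 2 such pairs their pairing is not established; a replicate block called 6 genes and no member there. With a replicate block the trend had 3 members over all wells and 4 in Pou4f1-positive wells (Gng4 added), E11 to P4 had 5, and the block changed no other count. Leaving out single plates gave 3 in both trends, 1 to 2 from E11 to P4 over all wells and 2 to 5 in Pou4f1-positive wells, 1 to 5 and 1 to 4 from E18 to P4, 0 to 2 and 0 to 3 from P7 to the adult, 1 to 2 for the Pou4f1 comparison, and 0 from P4 to P7 and between sides. Where a stage kept 1 plate, that plate was assumed to vary like the others. Over all tested members, 55 of 1377 differences under alternatives changed sign, none past the threshold in either fit: 9 each for Gng7 and Gng11, 8 for Gng4, 7 for Gng8, 6 each for Gng5 and Gng12, 4 each for Gng2 and Gng3, and 2 for Gng10. Those of Gng8 were: from E18 to P4, -0.49 without E18 plate 1 (2.27 without E18 plate 2) over all wells, and in Pou4f1-positive wells -0.51 without E18 plate 1 (0.99 without plate 2), -0.044 with DESeq2 size factors, -0.042 with DESeq2, -0.052 without high wells and -0.12 at 2 Pou4f1 counts; between sides, 0.078 without right plate 2 (-0.13 without right plate 1). The share of Gng8-positive wells depended on depth: at 1000 and 4000 UMIs it averaged 9.30% and 21.4% at E11 (12.2% at 2000) and 37.6% and 72.0% at P7 (53.2%). At resolution 0.5 Gng8 in the vascular class was 70.2 CPM (main 74.9). That class then held a Col1a1 cluster of 88 wells beside the Cldn5 cluster of 58, so these values cover different wells. The cause of the other changes was not tested.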

Other observations

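Single wells, thinned to 2000 UMIs, held a median of 1 to 2 of the 10 members. Wells in which Gng8 was the only member counted were 2 of 43 and 5 of 35 Gng8-positive wells on the E11 plates, 8 of 67 at E12, 5 of 54 and 5 of 28 at E13, 15 of 85 and 17 of 159 at E15, 7 of 37 and 2 of 71 at E18, 25 of 123 and 27 of 134 at P4, 30 of 169 and 31 of 153 at P7, and 6 of 29 and 49 of 135 in the adult. Plates of a stage differed among themselves at E11, E13, E15 and E18 and in the adult, and E13 plate 2, E15 plate 1 and E18 plate 1 lay near the P7 plates. Gng3 counts did not go one way with Gng8 on every plate. On adult plate 2, 40.7% of Gng8-positive and 27.1% of Gng8-negative wells had a Gng3 count, and on E11 plate 1 88.4% and 69.1%. The order was opposite on P4 plate 1 (66.7% and 67.1%), P4 plate 2 (69.4% and 70.7%), P7 plate 2 (67.97% and 72.1%) and right plate 1 of the C57BL/6 set (59.2% and 60%). No member was counted in 82 of 327 wells of adult plate 2, 3 of 40 of adult plate 1, 76 of 261 of E18 plate 1 and 38 of 305 of E11 plate 1.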
